A study of Mus musculus with 8 samples.

Results

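The miR-23, miR-27 and miR-24 miRNAs are encoded together in a pair of paralogous clusters of the mouse genome, one on chromosome 8 (miR-23a, miR-27a and miR-24) and one on chromosome 13 (miR-23b, miR-27b and miR-24). The 5 mature miRNAs (mmu-miR-23a, mmu-miR-27a, mmu-miR-24, mmu-miR-23b and mmu-miR-27b) were taken by name from the 611 mouse miRNAs on the array, 3 for each cluster with miR-24 counted in both. They were measured in basal progenitors, dividing precursors of cortical neurons found outside the ventricular lining, sorted by flow cytometry from wild-type mouse embryonic cortex at embryonic day 16 (E16, 4 samples) and embryonic day 13 (E13, 4 samples). One single-colour Agilent miRNA array was run per sample. The submitters describe 3 litters for the 4 replicates of a stage, and if no litters were pooled at least 1 litter gave more than 1 replicate, and the p-values measure no more than the spread of these samples.

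A miRNA pairs with messenger RNAs mainly through its seed, bases 2 to 8, and lowers their stability or translation. The hairpins of a cluster are cut from one primary transcript, so cluster members can be made together, while the amount of each mature miRNA also depends on its own processing and decay. The miR-23, miR-27 and miR-24 clusters are best known from blood vessels, muscle, fat and blood cells. miR-23 lowers glutaminase in human lymphoma cells, miR-27 restrains fat cell formation in part through Pparg, and miR-24 lowers several cell cycle genes in human blood cell lines.

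The mature sequences are shown because they decide what the array can tell apart. Those of 4 of the 5 members were matched in RefSeq (GRCm38.p6) and are printed 5′ to 3′ with the seed in capitals.
miR-23a: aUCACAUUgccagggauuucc
miR-27a: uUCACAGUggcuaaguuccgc
miR-27b: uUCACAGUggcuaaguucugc
miR-24: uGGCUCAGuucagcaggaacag
The paralogues miR-27a and miR-27b share one seed. No mature mouse miRNA in the RefSeq table outside the members had the seed of miR-23a or of miR-27, and 4 others had that of miR-24 (miR-5124b, miR-6369, miR-6410 and miR-6413).

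The array probes are DNA strands complementary to the 3′ part of the miRNA. In the brightest probe of each member, printed 5′ to 3′ from the files, capitals mark the base that differs between paralogues.
miR-23a probe: ggAaatccctggcaatgt
miR-23b probe: ggTaatccctggcaatg
miR-27a probe: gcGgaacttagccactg
miR-27b probe: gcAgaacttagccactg
miR-24 probe: ctgttcctgctgaactga
The miR-23a probe is 18 bases long and the miR-23b probe 17, without the last base. Counted from 1 at the 5′ end of the probe, the change from the miR-23a to the miR-23b probe was A3T. That from the miR-27a to the miR-27b probe was G3A. The probes of each pair thus differ at 1 of the 17 positions they share. Probes of a pair may therefore share signal, and how much they do was not tested. The probes matched bases 4 to 21 of miR-23a, 5 to 21 of miR-27a and miR-27b, and 5 to 22 of miR-24.

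The file headers place the probes on mm9, that of miR-23a at chr8:86732466-86732482, miR-27a at chr8:86732631-86732646, miR-23b at chr13:63401842-63401857 and miR-27b at chr13:63402073-63402088. The miR-24 probe has a match at each cluster, chr8:86732778-86732795 and chr13:63402563-63402580. Its hairpins are shown, with mature miR-24 in capitals, since the same 22 bases lie in both.
Mir24-2 (chromosome 8): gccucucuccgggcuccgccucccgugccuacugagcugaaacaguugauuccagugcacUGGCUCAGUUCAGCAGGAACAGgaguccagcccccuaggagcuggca
Mir24-1 (chromosome 13): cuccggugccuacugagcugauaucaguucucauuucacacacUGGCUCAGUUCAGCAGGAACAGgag
In RefSeq's GRCm38.p6 the chromosome 8 hairpins Mir23a, Mir27a and Mir24-2 lie on the plus strand at chr8:84208518-84208921, within 404 bases, with Zswim4 as the next gene 2020 bases beyond the cluster. The chromosome 13 hairpins Mir23b, Mir27b and Mir24-1 also lie on the plus strand, at chr13:63300484-63301275, spread over 792 bases and within the span of the protein-coding gene Aopep, an aminopeptidase. Another hairpin gene, Mir3074-2 on chromosome 8 and Mir3074-1 on chromosome 13, overlaps each cluster. Whether the chromosome 13 hairpins are exonic or intronic in Aopep was not analysed here.

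Array brightness differed. The 75th percentile of the processed signal, taken over the 126 probes detected well above background throughout, ran from 109 to 748 on the E16 arrays and from 162 to 490 on the E13 arrays. E16 replicate 4 was the dimmest, with 76 miRNAs well above background, against 125 to 170 on the other E16 arrays and 119 to 206 on the E13 arrays. Correlations over the 153 tested miRNAs were 0.884 to 0.988 within E16, 0.968 to 0.992 within E13 and 0.870 to 0.936 between stages. Stage cannot be told apart from position on the slide, since the E16 arrays all lay in row 1 and the E13 arrays in row 2. E16 replicate 1 was the lone array of the series on slide 1. E16 replicates 2 and 3 shared slide 2 with E13 replicates 1 and 2. E16 replicate 4 shared slide 3 with E13 replicates 3 and 4. Signals below are given as a percent of that 75th percentile on the same array, and a level is compared only between arrays for the same probe, because probes differ in brightness.

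All 5 members passed the filter for testing, well above background on at least 4 arrays. miR-23a, miR-24 and miR-23b were well above background on all 8 arrays. miR-27a and miR-27b were so on 3 E16 and 3 E13 arrays and missed it on E16 replicate 4 and E13 replicate 1, the dimmest array of each stage. Each value rests on 7 to 10 replicate spots, whose coefficient of variation ran from 1.98% to 19.5% where the probe was well above background.

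With arrays scaled to this 75th percentile, miR-23a of chromosome 8 was the one cluster member that passed the test, at close to double its E13 level at E16. Its paralogue miR-23b, the miR-24 shared by both clusters, and both miR-27 miRNAs did not pass the test, and their signals overlapped between stages. The call was 1 of 5 members higher and 0 lower, with 7.19% of all 153 tested miRNAs called higher and 26.1% lower. The median log2 difference (E16 minus E13) was 0.14 over the 5 members and -0.40 over all tested miRNAs. The count of called members depended on the processing. With the percentile taken over all mouse probes 4 of 5 were higher, with 30.7% of all tested miRNAs called higher. The median of all tested miRNAs was 0.42 there. With quantile normalization 2 members were higher (13.1% of all tested), and with no filter on dim probes 0 (1.31%). Whether miR-23a and miR-27a differ in their change was not tested.

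miR-23a stood at 38.7%, 27.1%, 24.2% and 21.4% of the array's 75th percentile in E16 replicates 1 to 4, against 11.3%, 12.3%, 18.9% and 13.1% in E13 replicates 1 to 4. Every E16 array lay above every E13 array, a separation in the same direction that 7.84% of tested miRNAs showed. The mean was 27.9% ± 7.59 at E16 and 13.9% ± 3.41 at E13 (SD, n = 4 each), a 1.99-fold rise (log2 difference 0.99, SE 0.24, 95% confidence interval 0.46 to 1.53, limma adjusted p = 0.00989). The difference ranked 9 of 153 from the most positive to the most negative, an order that includes miRNAs at the floor on some arrays. It ran from 0.82 to 1.15 with any one array left out, and each of those fits kept the call (limma adjusted p up to 0.0441). Over all miRNAs tested in those fits, the share called higher was 6.57%, 5.80%, 6.16% and 11.1% without E16 replicates 1 to 4, and 6.08%, 7.86%, 6.11% and 6.29% without E13 replicates 1 to 4. Within slide 3, where E16 replicate 4 is the lone E16 array, the difference was 0.44 and did not pass (limma adjusted p = 0.24), and within slide 2 it was 1.12 and passed, with 5.88% of all tested called higher.

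miR-27a, encoded next to miR-23a on chromosome 8, stood at 15.6%, 7.91%, 9.04% and 4.96% in E16 replicates 1 to 4, against 5.76%, 4.13%, 8.68% and 8.10% in E13 replicates 1 to 4. E16 replicate 1 lay clearly above the rest, and the stages overlapped, with E16 replicate 4 below 3 of the E13 arrays. The log2 difference was 0.43 (SE 0.37, 95% confidence interval -0.40 to 1.27, limma adjusted p = 0.37). The interval includes both no change and a change as large as that of miR-23a. Without E16 replicate 4, where the probe was not well above background, the difference was 0.70 (95% confidence interval -0.046 to 1.44, limma adjusted p = 0.109). Without E13 replicate 1, where it was not so either, the difference was 0.38 (limma adjusted p = 0.535). Slide 3 gives no comparison for miR-27a or miR-27b, since its lone E16 array is replicate 4, on which neither probe was well above background.

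miR-24, the product of both clusters, stood at 27.5%, 23.7%, 24.4% and 20.2% in E16 replicates 1 to 4, against 23.0%, 22.4%, 24.4% and 24.1% in E13 replicates 1 to 4. The E13 values all lay within the range of the E16 values. The mean was 23.9% ± 2.99 at E16 and 23.5% ± 0.918 at E13 (SD, n = 4 each), and the log2 difference of 0.02 had the narrowest interval of the 5 members (SE 0.15, 95% confidence interval -0.31 to 0.35, limma adjusted p = 0.92).

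miR-23b, the chromosome 13 paralogue of miR-23a, stood at 17.8%, 14.4%, 12.8% and 10.5% in E16 replicates 1 to 4, against 11.98%, 11.02%, 15.1% and 11.8% in E13 replicates 1 to 4. The stages overlapped, with the highest and the lowest value both on E16 arrays. The log2 difference was 0.14 (SE 0.20, 95% confidence interval -0.31 to 0.59, limma adjusted p = 0.61).

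miR-27b, the chromosome 13 paralogue of miR-27a, stood at 8.81%, 5.24%, 5.08% and 1.96% in E16 replicates 1 to 4, against 4.77%, 4.01%, 5.41% and 5.56% in E13 replicates 1 to 4. The E13 values again lay inside the wider range of E16. The log2 difference was -0.08 (SE 0.40, 95% confidence interval -0.99 to 0.83, limma adjusted p = 0.90), and 0.33 without E16 replicate 4, where the probe was not well above background.

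**Figure D1:**
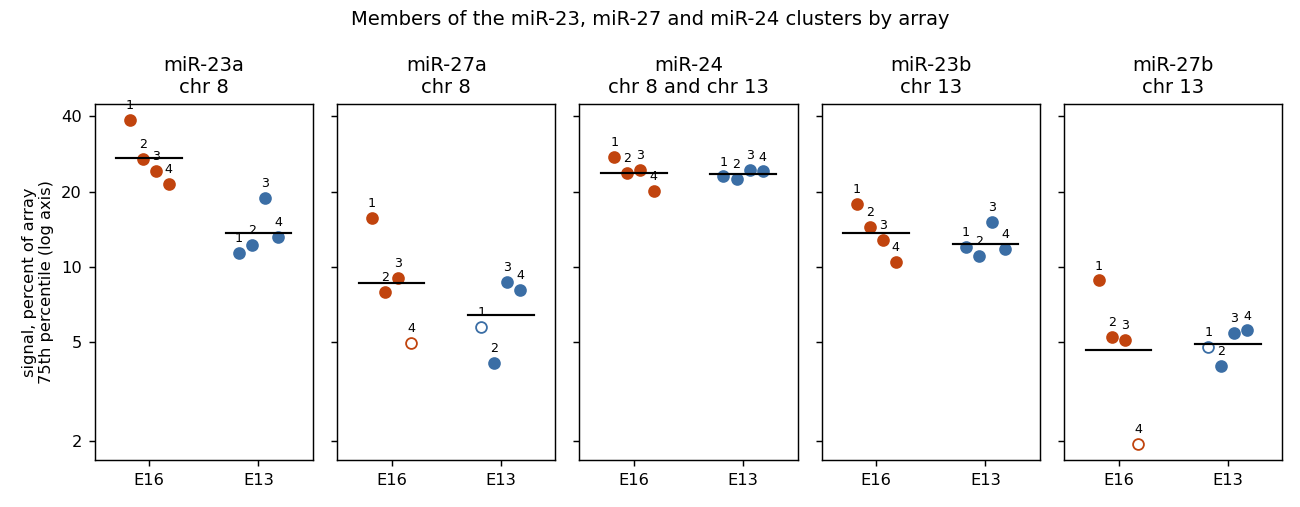
Signal of each member on each array, as a percent of the array's 75th percentile on a log axis, with E16 left of E13. Numbers are replicates, open circles are values not well above background and lines are means of the log values. The stages separate for miR-23a, with E16 between 21.4% and 38.7% and E13 between 11.3% and 18.9%, and overlap for the other 4 members.

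Within E16, replicate 1 (slide 1) was the highest and replicate 4 (slide 3) the lowest array for each of the 5 members. miR-24 varied least between the arrays of a stage, with SDs on the log2 scale of 0.18 at E16 and 0.057 at E13 (n = 4 each), and miR-27b had the largest at E16, 0.90, against 0.22 at E13. Across the 8 arrays the members' scaled log2 signals correlated between 0.31 (miR-23a with miR-27b) and 0.97 (miR-24 with miR-27b). These correlations describe 8 arrays that share scaling and brightness between probes.

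The direct comparison of the clusters used the ratio of paralogues on the same array, which is not changed when all signals of an array are multiplied by one factor. Since probes differ in brightness, the shift of a ratio between stages can be read, and the ratio itself gives no relative amount. The miR-23a to miR-23b signal ratio was 2.18, 1.88, 1.89 and 2.05 in E16 replicates 1 to 4, against 0.946, 1.11, 1.25 and 1.12 in E13 replicates 1 to 4. The E16 ratios were all above the E13 ratios, on the dimmest array as on the brightest. The share of all miRNAs whose ratio to miR-23b separated the stages was not counted. On the log2 scale the mean ratio was 0.99 ± 0.10 at E16 and 0.14 ± 0.17 at E13 (SD, n = 4 each), a shift of 0.86 or 1.81-fold towards the chromosome 8 miRNA. In a two-sided exact permutation test over the 70 assignments of arrays this gave p = 0.0286, the smallest p this design allows. After Benjamini-Hochberg adjustment over the 2 paralogue pairs the exact permutation p was 0.0571, which misses the threshold of 0.05. The miR-23 pair could pass after adjustment only if the miR-27 pair also had the smallest p, so its own values could not decide this. The interval of shifts that the exact test does not reject ran from 0.588 to 1.202.

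With every array expressed relative to miR-23b and limma fitted across the other 152 miRNAs, a test chosen after the data were seen, the same shift of 0.86 had an SE of 0.15 (limma adjusted p = 0.00132). In that fit 7.24% of miRNAs were called higher. The shift was 0.88 within slide 2 and 0.79 within slide 3. It ran from 0.78 to 0.92 with any one array left out. The spread over replicate spots, which covers technical error within an array and not the spread between samples, gave each array's log2 ratio a standard error of 0.027 to 0.11. Quantile normalization and the total signal per miRNA each gave a shift of 0.73. Normexp background correction with an added offset of 50 gave a smaller shift of 0.43.

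The miR-27a to miR-27b signal ratio was 1.77, 1.51, 1.78 and 2.54 in E16 replicates 1 to 4, against 1.21, 1.03, 1.60 and 1.46 in E13 replicates 1 to 4. The stages overlapped slightly, E16 replicate 2 lying below E13 replicate 3. The mean log2 ratio was 0.90 ± 0.32 at E16 and 0.38 ± 0.28 at E13 (SD, n = 4 each), a shift of 0.51 that did not pass (two-sided exact permutation test, p = 0.0571, adjusted over the 2 pairs p = 0.0571). The interval of shifts not rejected ran from -0.085 to 1.30 and holds the shift of the miR-23 pair. Relative to miR-27b, in the fit across 152 miRNAs chosen after the data were seen, the shift of 0.51 had an SE of 0.28 and did not pass (limma adjusted p = 0.315). The shift was smaller with quantile normalization (0.37, exact permutation p = 0.20), the total signal per miRNA (0.25, exact permutation p = 0.486) and normexp correction (0.11). The highest ratio, on E16 replicate 4, came from 2 probes that were not well above background there. On the arrays with both well above background, 3 of each stage and a choice made after the data were seen, the shift was 0.33 (two-sided exact permutation test, p = 0.20, where the smallest possible p is 0.10). Whether the shifts of the miR-23 and miR-27 pairs differ from each other was not tested.

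**Figure D2:**
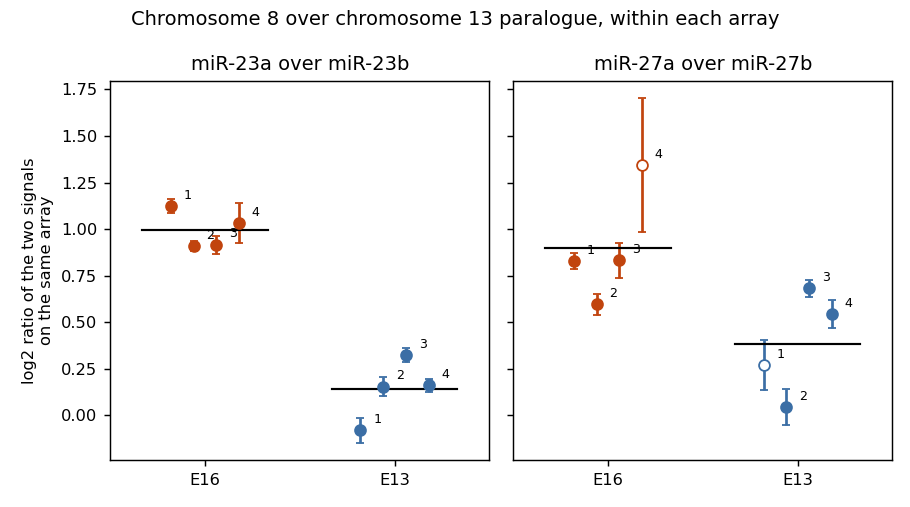
Log2 ratio of the chromosome 8 to the chromosome 13 paralogue on each array, E16 left of E13, with bars for the standard error from replicate spots and lines for stage means. Numbers are replicates, and open circles mark arrays where a probe of the pair was not well above background. The miR-23 ratios centre on 0.99 at E16 and 0.14 at E13 without overlap, and the miR-27 ratios on 0.90 and 0.38 with overlap.

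Because miR-24 is made by both clusters, its array signal is the sum of both sources. The log2 ratio of miR-23a to miR-24 lay between -0.014 and 0.50 on the E16 arrays and between -1.02 and -0.37 on the E13 arrays, without overlap, a shift of 0.97. The ratio of miR-24 to miR-23b lay between 0.63 and 0.94 at E16 and between 0.69 and 1.03 at E13, a shift of -0.12 with overlap. Within the chromosome 8 cluster, the miR-23a to miR-27a ratio shifted by 0.56 with overlap, and within the chromosome 13 cluster the miR-23b to miR-27b ratio shifted by 0.22 with overlap. The miR-23a to miR-27b ratio shifted by 1.08 without overlap, with miR-27b not well above background on E16 replicate 4 and E13 replicate 1. These shifts belong to the 8 further pairs of members, which share probes with the pairs above and were not tested. How many other miRNAs would separate the stages in such ratios was not counted.

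The opposite arms of the hairpins carry sequences that differ between the clusters, including miR-24-1* of chromosome 13 and miR-24-2* of chromosome 8. Of the 6 such arms, 4 (miR-27a*, miR-27b*, miR-24-1* and miR-24-2*) had probes on the array, and none was well above background on any array. The processed signals of miR-24-2* lay between -3.16 and 0.18 and those of miR-24-1* between -0.55 and 3.58. These arms were at background at both stages, so that the miR-24 signal cannot be divided between its loci here.

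Scaling moved the members together with the other miRNAs. With the 75th percentile taken over all mouse probes, the median of all tested miRNAs was 0.42 in place of -0.40, and 4 members were called higher (miR-23a at 1.82, miR-27a at 1.25, miR-23b at 0.96 and miR-24 at 0.84), with 30.7% of all tested miRNAs called higher. With quantile normalization miR-23a (1.21) and miR-27a (0.93) were called, with 13.1% of all tested. Relative to the median of all tested miRNAs, miR-23a stood at 1.39 under both percentiles, miR-27a at 0.83, miR-23b at 0.54, miR-24 at 0.42 and miR-27b at 0.32. Both percentiles divide each array by a single number, so these values match by construction, apart from signals at the floor. miR-23a was the one member called under median centring (9.15% of all tested called higher), normexp correction (9.15%, with a smaller difference of 0.57), the total signal per miRNA (5.23%), the deposited value table (15.1%) and the mean of all probes (7.84%). It was not called, nor was any other member, with no filter on dim probes (1.31%).

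**Figure D3:**
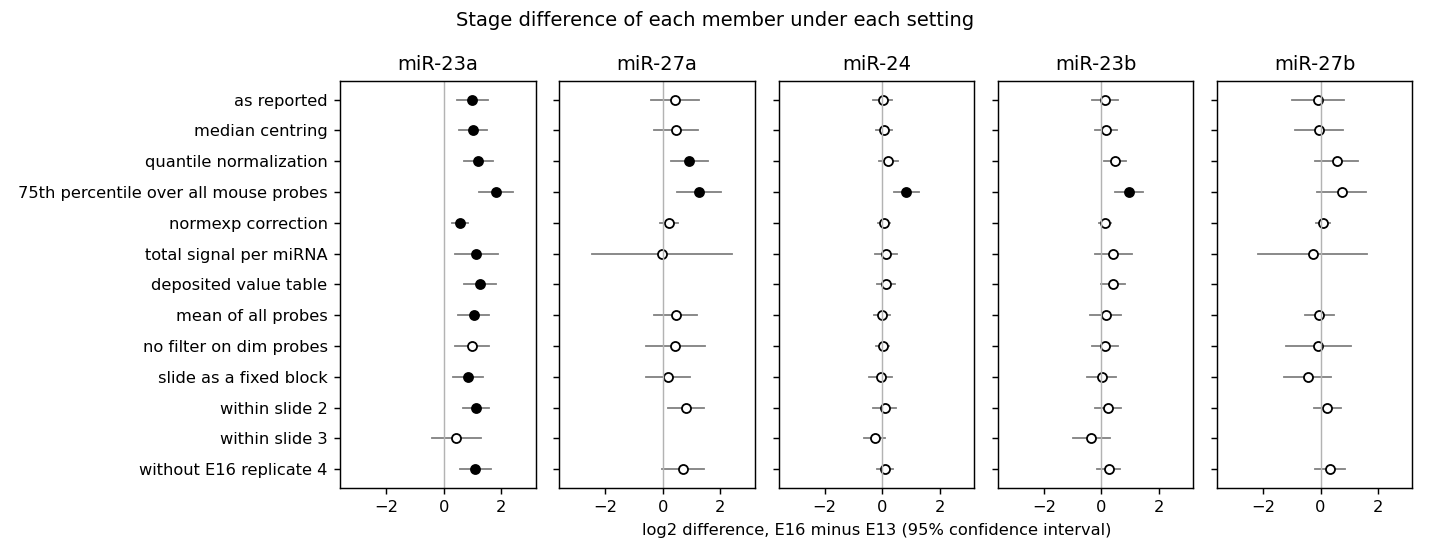
Log2 difference, E16 minus E13, of each member with its 95% confidence interval under 13 settings, with filled circles for limma adjusted p under 0.05. miR-23a lies to the right of 0 in each setting shown and is filled in all but within slide 3 and with no filter on dim probes, while the other members move across 0 or stay unfilled in most. The deposited table holds no value for miR-27a and miR-27b, and their slide 3 values are not drawn because the lone E16 array there did not measure them above background.

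**Figure D4:**
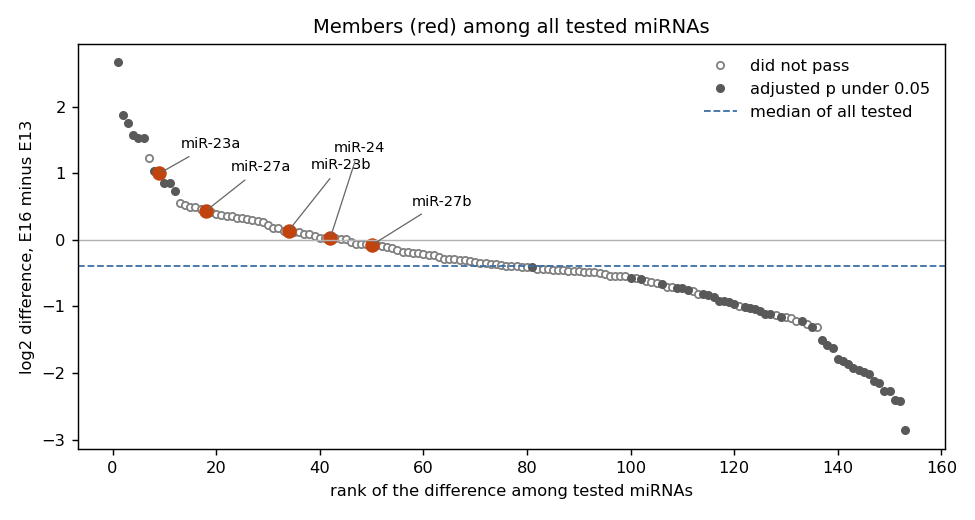
Log2 differences, E16 minus E13, of the 153 tested miRNAs from the most positive to the most negative. The 5 members are in red and the median of all tested (-0.40) is a dashed line. miR-23a is ninth, miR-27a eighteenth, and miR-23b, miR-24 and miR-27b are at ranks 34, 42 and 50, all above the median. That median includes miRNAs at the floor on every E16 array.

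Among the tested miRNAs outside the clusters, those most like miR-23a over the 8 arrays were miR-26a (Pearson r = 0.94), miR-195 (r = 0.93) and miR-497 (r = 0.93). miR-195 and miR-497 were called higher at E16, but both were well above background on 3 E16 arrays and 1 E13 array, with E13 means close to the floor, so no size is given. miR-26a, well above background on all 8 arrays, had a log2 difference of 0.48 without a call. The miRNAs most like miR-27a were miR-101a (r = 0.99), miR-15a (r = 0.97) and miR-101b (r = 0.97). For miR-24 they were miR-218 (r = 0.997), miR-340-5p (r = 0.96) and miR-124 (r = 0.95), and for miR-27b miR-218 (r = 0.96), miR-20a* (r = 0.96) and miR-124 (r = 0.95). For miR-23b they were miR-26b (r = 0.90), miR-218 (r = 0.88) and miR-101b (r = 0.86). Among these, miR-218 and miR-101b were well above background on 3 E16 arrays and 1 E13 array. miR-340-5p and miR-20a* were so on 3 E16 and 2 E13 arrays, and miR-101a and miR-26b on 3 E16 and 4 E13 arrays. The correlations of these miRNAs, and all those with miR-27a and miR-27b, include arrays where a miRNA of the pair was not well above background. None of those named for miR-27a, miR-24, miR-27b and miR-23b was called different between stages, and the correlations are given without a test.

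These clusters are also made in blood vessels and blood cells, so the miRNAs characteristic of such cells were read on the same arrays. Both endothelial markers (miR-126-3p and miR-126-5p), the 3 mural cell markers on the array (miR-143, miR-145 and miR-145*), the 3 red blood cell markers (miR-451, miR-144 and miR-486) and the 4 of white blood cells and microglia (miR-223, miR-142-3p, miR-142-5p and miR-150) were well above background on no array. The summed endothelial signal lay between -2.19% and 0.35% of the 75th percentile at E16 and between -0.58% and 0.23% at E13. The mural sum lay between -1.38% and -0.30% at E16 and between -1.67% and -0.56% at E13. That of red blood cells ran from -0.18% to 0.41% at E16 and from -0.64% to 0.39% at E13, and that of white blood cells and microglia from -0.60% to 0.046% at E16 and from -1.58% to 0.055% at E13.

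Neural markers were present. miR-9 and miR-9*, which neural cells make in abundance, passed the background flag on all 8 arrays, with summed signals of 1091% to 1828% at E16 and 899% to 1621% at E13. The 3 neuronal markers (miR-124, miR-128 and miR-137) summed to 37.1% to 164% at E16 and 73.4% to 103% at E13, and 1 of them, miR-137, was called lower at E16 (log2 difference -1.02, well above background on 3 E16 and 4 E13 arrays). The 2 markers of the oligodendrocyte lineage (miR-219 and miR-338-3p) summed to 9.69% to 26.4% at E16 and 15.7% to 23.9% at E13. The part of neuronal and oligodendrocyte lineage cells in the values of the cluster members was not tested, and fewer cells of a type and less of a miRNA per cell cannot be told apart in these bulk samples.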

How the data were processed

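The authors deposited 1 scanner file per array, made with Agilent Feature Extraction 10.7.3.1, per the file headers and the submitters' processing notes, and 1 value table. The deposited scanner files give intensity per spot (mean, local background, background-subtracted processed signal, and a total per miRNA), not scaled between arrays, and other columns with flags of 0 or 1. In the deposited table, log2 values are given for 86 miRNAs, with a median of 6.90 in each column. They follow the processed signal of their array in rank order. The sources used here do not give their normalization, and the table was an alternative only.

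Control spots and outlier spots (2.01% to 3.86% per array) were left out, no spot was saturated, and spots of a probe were averaged. A probe was well above background where a share of 0.5 of its spots was. Processed signals were divided by the array's 75th percentile over the 126 probes well above background on all arrays, floored at 1.60% of it, and log2 was taken. The brightest probe stood for its miRNA. Differences (E16 minus E13) were tested in limma 3.58.1 (R 4.3.3), two-sided, Benjamini-Hochberg over the 153 miRNAs well above background on at least 4 arrays, threshold 0.05. On simulated data for these 153 miRNAs the fit recovered 73.5% of changes of 1 log2 unit and 96.0% of changes of 2. For within-array log2 ratios the test was an exact permutation of arrays, two-sided. The number of arrays limits the precision. Alternatives covered scaling, background correction, filters, probe summary, slide, replicate number and leaving out each array. The members, the marker lists and the rule for other named miRNAs (all members, their opposite arms, the markers, and the 3 miRNAs most correlated with each member) were chosen with earlier results of these data known.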

Additional observations from a re-analysis of the deposited data

How the results depend on the processing

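The difference of miR-23a stayed positive under all 22 alternatives and passed in 20 of them. It did not pass with no filter on dim probes (0.99, limma adjusted p = 0.066 over 611 miRNAs) or within slide 3 (0.44), and it was smaller with normexp correction (0.57, limma adjusted p = 0.0117). miR-27a passed with the all-probe percentile (1.25) and quantile normalization (0.93) and turned negative with the total signal per miRNA (-0.032) and within slide 3 (-0.76). That slide 3 value rests on 1 E16 array not well above background, and no call is read from it. miR-24 passed with the all-probe percentile (0.84) and turned negative with the mean of all probes (-0.00088), slide as a fixed effect (-0.055), within slide 3 (-0.26) and without E16 replicate 1 (-0.047). miR-23b passed with the all-probe percentile (0.96) and turned negative within slide 3 (-0.35). miR-27b turned positive with the all-probe percentile (0.74), quantile normalization (0.56), normexp correction (0.096), within slide 2 (0.24) and without E16 replicate 4 (0.33), and stood at -1.49 within slide 3, on 1 E16 array not well above background, from which no call is read. Slide 3 held 1 E16 array, whose spread is assumed to be that of the other arrays. The cause of these changes was not tested.

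With any one array left out, the differences ran from 0.82 to 1.15 for miR-23a, 0.15 to 0.70 for miR-27a, -0.047 to 0.10 for miR-24, 0.011 to 0.26 for miR-23b and -0.39 to 0.33 for miR-27b, the miR-23 ratio shift from 0.78 to 0.92, the miR-27 ratio shift from 0.37 to 0.62, and the counts over all tested miRNAs from 8 to 17 higher and 22 to 54 lower. The higher count was 17 without E16 replicate 4, and the lower count was 24, 24, 22 and 23 without E13 replicates 1 to 4. Those counts, 11 higher and 40 lower as reported, were 47 and 16 with the all-probe percentile, with 20 higher under quantile normalization, and with 19 lower for the total signal per miRNA, 11 lower in the deposited value table, 10 lower among miRNAs well above background on all arrays, 25 lower within slide 2 and 88 lower within slide 3. The miR-23 ratio shift passed in the deposited value table (0.86, exact permutation p = 0.0286). The miR-27 pair has no value there, so that p was not adjusted over 2 pairs. The miR-23 shift also passed with limma relative to the paralogue (0.86), a test chosen after the data were seen.

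Same-numbered replicates share only a number: the correlations of their deviations from the stage means ran from -0.15 to 0.27. With the replicate number as a block, miR-23a was at 0.99 (limma adjusted p = 0.0403), 10 miRNAs were higher and 35 lower, and the ratio shifts of 0.86 and 0.51 had an exact permutation p of 0.125 over the 4 pairs, the smallest such p, so that this test could not pass. Within a slide the exact test of a ratio could not pass for the same reason. Dim arrays limit miR-27a and miR-27b most, since both missed the background flag on E16 replicate 4 and E13 replicate 1.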

Other observations

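Each member had a second, dimmer probe that was not used for the values above. The second probe of miR-23a gave a log2 difference of 1.10, that of miR-27a 0.45 (with 3 arrays at the floor), that of miR-23b 0.16 and that of miR-24 -0.023. The second probe of miR-27b was at the floor on all 8 arrays and gave no difference. Among these second probes, that of miR-24 was well above background on all 8 arrays, that of miR-23a on 4 (3 E16 and 1 E13), and those of miR-27a and miR-23b on 3 each (2 E16 and 1 E13).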
